A study of Danio rerio with 16 samples.

Results

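Potassium channel subunits were taken as the rows of the expression table whose gene symbol starts with kcn, which gave 113 of 32513 rows in 19 subfamilies. The values are FPKM, fragment counts scaled to transcript length and library size, so levels of different genes can be set side by side per length. Between 48 and 120 hours post fertilization (hpf) the summed level of the 113 genes in unexposed embryos more than doubled, to 292.1 ± 30.8 FPKM at 120 hpf, against 127.5 ± 9.74 FPKM at 48 hpf (SD, n = 4 each). No subunit passed the test between embryos exposed to radiofrequency radiation and Control embryos at either stage. A tandem group of kcnj1a copies had the smallest p-values of that comparison at 120 hpf.

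The study asks whether developmental exposure to 3.5 GHz radiofrequency radiation, labelled 5G, alters gene expression in zebrafish. RNA of whole embryos was sequenced in 4 groups of 4 libraries, 16 in all. The 5G 120 hpf and 5G 48 hpf groups were exposed at 3.5 GHz and about 30 dBm between 6 and 48 hpf and collected at the stage in their name, so that the later group was sampled after the exposure had ended. The Control 120 hpf and Control 48 hpf groups received no radiation. The labels name no strain, genotype, clutch or number of embryos per library. The p-values below thus rest on library-to-library spread alone, and that spread may be technical.

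Potassium channels let potassium ions cross the membrane along their gradient and so set the resting potential and end the action potential. Voltage-gated channels (kcna to kcnd, kcnh and kcnq) open on depolarization, while members of kcnf, kcng, kcns and kcnv form no channel alone and modify Shab-type partners. Inward rectifiers (kcnj) and leak channels with paired pore domains (kcnk) hold the resting potential and move potassium across epithelia, and kcnma, kcnn and kcnt open on intracellular calcium or sodium. In fish larvae such channels act in neurons, muscle and heart, and in the kidney and the skin ionocytes that take up salt from the water.

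After filtering by the authors, 39603976 to 49232542 reads remained per library. Ribosomal RNA made up 3.2% of Control 120 hpf replicate 1 and 0.15 to 0.3% of the others. The subunits were unevenly spread over replicates. In 5G 48 hpf replicate 3 the summed level was 175.1 FPKM, against 126 to 151.1 FPKM in the other 5G 48 hpf libraries, and 59.3% of the 113 genes (32.1% of all rows) had their highest value of the group there. In Control 120 hpf replicate 1 the share was 46.9% (29.7% of all rows), and in Control 48 hpf replicate 3 it was 44.2% (32.7% of all rows). These 3 libraries also had the most transcripts detected of their group. Without Control 120 hpf replicate 1 the counts of the stage comparison in Control were 54 rises and 5 falls among 87 tested subunits, and without Control 48 hpf replicate 3 they were 60 and 5, where all libraries gave 60 and 7. Without 5G 48 hpf replicate 3 those in 5G were 59 and 2, where all libraries gave 60 and 3. Over all rows the shares in these fits were, in that order, 36.4% higher and 27.1% lower, 37.35% and 26.1%, and 36.0% and 28.3%. Other libraries moved the rises in 5G more. They were 52 of 89 without 5G 48 hpf replicate 1 (33.9% of all rows) and 53 of 87 without 5G 120 hpf replicate 1 (34.6% of all rows). Without 5G 120 hpf replicate 3 they were 54 of 88 (34.9% of all rows). In every group replicate 4 also had its own raw read total, while all others had 47.48 M, and with replicates 1 to 3 only the stage comparison gave 59 rises and 2 falls in 5G and 58 and 4 in Control, and 0 subunits passed between 5G and Control at either stage. The background of that stage comparison was 34.1% higher and 26.3% lower in 5G, and 36.3% and 25.4% in Control.

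Few subunits were abundant in whole embryos. Of the 113 genes, 6 averaged 10 FPKM or more in a group and 44 stayed under 1 FPKM in every group. The number with a mean of 1 FPKM or more was 67 in 5G and 63 in Control at 120 hpf, and 42 in 5G and 37 in Control at 48 hpf. The highest was kcnc3a, a Shaw-type channel of fast-firing neurons, with 30.1, 30.2, 25.4 and 28.02 FPKM in 5G 120 hpf, 30.9, 27.6, 26.0 and 27.1 FPKM in Control 120 hpf, 11.2, 13.0, 14.7 and 11.5 FPKM in 5G 48 hpf, and 11.6, 8.52, 10.9 and 10.9 FPKM in Control 48 hpf. Every library of 120 hpf lay above every library of 48 hpf, and the treatments overlapped at both stages.

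The next genes in order at 120 hpf were auxiliary subunits and a calcium-activated channel. The Kv channel-interacting protein kcnip3a averaged 17.2 ± 1.21 FPKM in 5G and 18.3 ± 1.11 FPKM in Control, and its relative kcnip1b 16.1 ± 2.01 FPKM in 5G and 15.9 ± 0.797 FPKM in Control (SD, n = 4 each). The large-conductance channel kcnma1a followed with 15.2 ± 0.922 FPKM in 5G and 15.01 ± 1.17 FPKM in Control. These 3 neighbours in the order overlapped in their libraries at 120 hpf, apart from kcnip3a, whose Control libraries all lay above those of the other two in Control.

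At 48 hpf the leading gene differed in several subfamilies. In kcnip the highest mean of both treatments was that of kcnip1b at 48 hpf and of kcnip3a at 120 hpf. In kcnj the ATP-sensitive channel kcnj11 led at 48 hpf, with 6.18 ± 0.484 FPKM in 5G and 5.65 ± 0.963 FPKM in Control. At 120 hpf its relative kcnj11l led, with 11.6 ± 1.2 FPKM in 5G and 11.5 ± 1.35 FPKM in Control. In kcnh, kcnh3 led at 48 hpf and kcnh6a, the Erg-type channel that repolarizes the zebrafish heart, at 120 hpf.

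**Figure D1:**
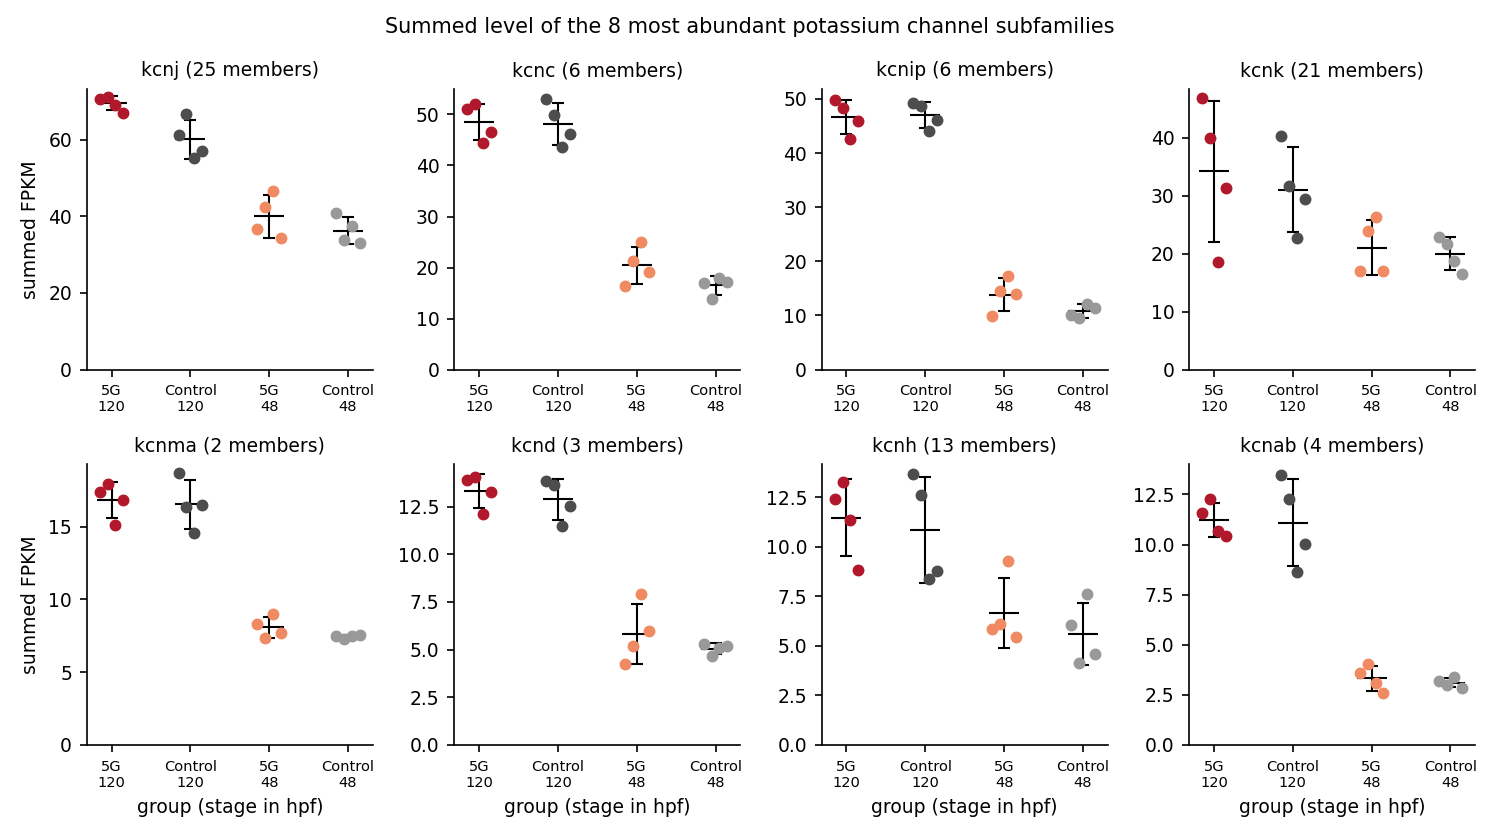
Summed FPKM (y axes) of the 8 most abundant subfamilies in each library, by treatment and stage in hpf (x axes); points are libraries and bars the mean and SD of 4. In kcnj, kcnc, kcnip, kcnma, kcnd and kcnab every 120 hpf library lies above every 48 hpf library. The stages overlap in kcnk, with 18.6 to 46.9 FPKM in 5G 120 hpf and 17.0 to 26.4 FPKM in 5G 48 hpf. They also overlap in kcnh, where the lowest Control 120 hpf library had 8.35 FPKM and the highest 5G 48 hpf library 9.26 FPKM.

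The comparison of 120 with 48 hpf in Control embryos describes the normal course of development. Of the 89 subunits that passed the filter of 0.5 FPKM in at least 4 libraries, 60 rose and 7 fell at an adjusted p under 0.05 (limma on log2(FPKM + 0.5), Benjamini-Hochberg over 23026 rows). The background over all rows was 38.3% higher and 27.9% lower, 66.1% in either direction. The filter admits genes that are high at 1 stage alone: 27 of the 89 reached 0.5 FPKM in under 4 libraries of 48 hpf, 13 of them in none. Only 2 of the 89 reached it in under 4 libraries of 120 hpf. The shares of rises given below for each kind of subunit carry this limit. Another 24 subunits were not tested, with no value above 0.88 FPKM. With all 113 subunits and no filter, 71 rose and 5 fell, against a background of 29.4% higher and 19.8% lower.

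The split of calls depends on the scaling. The median log2 fold change was 0.74 over the 89 subunits and 0.12 over all rows. After quantile normalization, which set the median of all rows to -0.12, 43 subunits rose and 15 fell, against a background of 28.4% higher and 38.1% lower. In bulk RNA of whole embryos, fewer cells of a type and less RNA per cell cannot be told apart. Without quantile normalization 7 of 10 neuron markers rose and 2 fell in Control, against 38.3% and 27.9% of all rows. Their summed level was 991.2 to 1030 FPKM at 120 hpf and 665 to 778.1 FPKM at 48 hpf. The part of cell composition in the changes was not tested.

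Among the voltage-gated pore-forming subunits, the rises were many and no tested gene fell. Of 36 such genes 27 were tested, of which 21 (77.8%) rose and 0 fell in Control, against 38.3% and 27.9% of all rows. The unfiltered fit of all 36 gave 24 higher and 1 lower, against 29.4% and 19.8% of all rows. All 6 kcnc genes and all 3 kcnd genes, the Shal-type channels of fast transient currents, rose. The Shab-type delayed rectifier kcnb2 had 6.39, 7.43, 6.56 and 7.06 FPKM at 120 hpf in Control, against 0.83, 0.52, 0.57 and 0.69 FPKM at 48 hpf, a log2 fold change of 2.68 ± 0.11 (SE; limma adjusted p = 2.83e-12). Its stages were far apart with no overlap.

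Among the Shaker-type genes, kcna6a rose with a log2 fold change of 1.81 ± 0.23 (SE; limma adjusted p = 3.33e-06) and kcna1a, an axonal channel, by 1.24. In contrast, kcna3a was spread widely within each group, with 3.59, 2.51, 0.71 and 0.85 FPKM in Control 120 hpf and 1.78, 0.84, 1.84 and 0.68 FPKM in Control 48 hpf, and did not pass (limma adjusted p = 0.499). Of these genes kcna6a passed the filter through 120 hpf, with 8 libraries of that stage and 2 of 48 hpf at 0.5 FPKM. The Shaw-type genes kcnc1a and kcnc1b rose by 1.58 and 1.77 on the log2 scale, and kcnd3 and kcnd1 by 1.24 and 1.13. In kcnh 5 of 9 tested genes rose, against 38.3% of all rows, led by kcnh6a at 1.29 ± 0.11 (SE; limma adjusted p = 4.43e-08). Of the M-current family, kcnq5b rose by 0.66, and after quantile normalization it did not pass (0.12, limma adjusted p = 0.567).

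In the modifier subunits every tested gene rose. Of 11 genes in kcnf, kcng, kcns and kcnv, 10 were tested and 10 rose in Control, against 38.3% of all rows. Of the tested genes, kcnf1b, kcng3, kcng4b, kcnv2a and kcnv2b reached 0.5 FPKM in under 4 libraries of 48 hpf. They passed the filter only with the libraries of 120 hpf, where they were high, so the share that rose is partly set by the filter. The unfiltered fit also gave 10 rises, against 29.4% of all rows. The largest change was in kcnv2b, whose mammalian counterpart is known from photoreceptors. It had 3.67, 4.49, 4.12 and 4.15 FPKM at 120 hpf in Control, against 0.22, 0.07, 0.37 and 0.28 FPKM at 48 hpf, a log2 fold change of 2.66 ± 0.17 (SE; limma adjusted p = 8.53e-10). Its partner copy kcnv2a rose by 1.51. Over the same libraries 5 of 6 photoreceptor markers rose and 0 fell, with sums of 1868 to 2031 FPKM at 120 hpf and 28 to 56.6 FPKM at 48 hpf. The smaller rises of kcnf1a (0.59) and kcns3a (0.62) did not pass after quantile normalization, where they were 0.09 (limma adjusted p = 0.549) and 0.15 (limma adjusted p = 0.284).

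Of 12 auxiliary subunits 11 were tested, of which 8 (72.7%) rose and 0 fell in Control, against 38.3% and 27.9% of all rows. All 6 kcnip genes, which bind Shal-type channels and sense calcium, rose. The largest rise was that of kcnip3a, with 19.8, 18.3, 18.0 and 17.1 FPKM at 120 hpf in Control, against 2.22, 2.7, 2.76 and 2.6 FPKM at 48 hpf (log2 fold change 2.62 ± 0.13 SE, limma adjusted p = 3.09e-11). The stages did not overlap, and kcnip1a rose by 2.17. Among the cytoplasmic beta subunits kcnab2b and kcnab1b rose by 2.05 and 1.68. The subunit kcnmb2 of the large-conductance channel did not pass (-0.14, limma adjusted p = 0.569), while its pore partner kcnma1a did.

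Channels opened by calcium or sodium counted 8 genes, of which 7 were tested, 6 (85.7%) rose and 0 fell in Control. The background over all rows was 38.3% higher and 27.9% lower. In kcnma1a the level was 16.6, 14.7, 13.8 and 14.9 FPKM at 120 hpf in Control, against 6.92, 6.88, 6.88 and 7.12 FPKM at 48 hpf, a log2 fold change of 1.05 ± 0.08 (SE; limma adjusted p = 5.59e-09). The sodium-activated kcnt1 rose by 1.25 and the small-conductance kcnn1b by 1.64. Like kcna6a, kcnt1 passed the filter through 120 hpf, with 8 libraries of that stage and 1 of 48 hpf at 0.5 FPKM. The rise of kcnn3 was small (0.28, limma adjusted p = 0.0164) and its call rested on single libraries. Without Control 120 hpf replicate 1 it was 0.21 (limma adjusted p = 0.066), and without Control 48 hpf replicate 4 it was 0.24 (limma adjusted p = 0.0532). After median-ratio scaling it was 0.17 (limma adjusted p = 0.135), and quantile normalization turned it to -0.04 (limma adjusted p = 0.756).

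**Figure D2:**
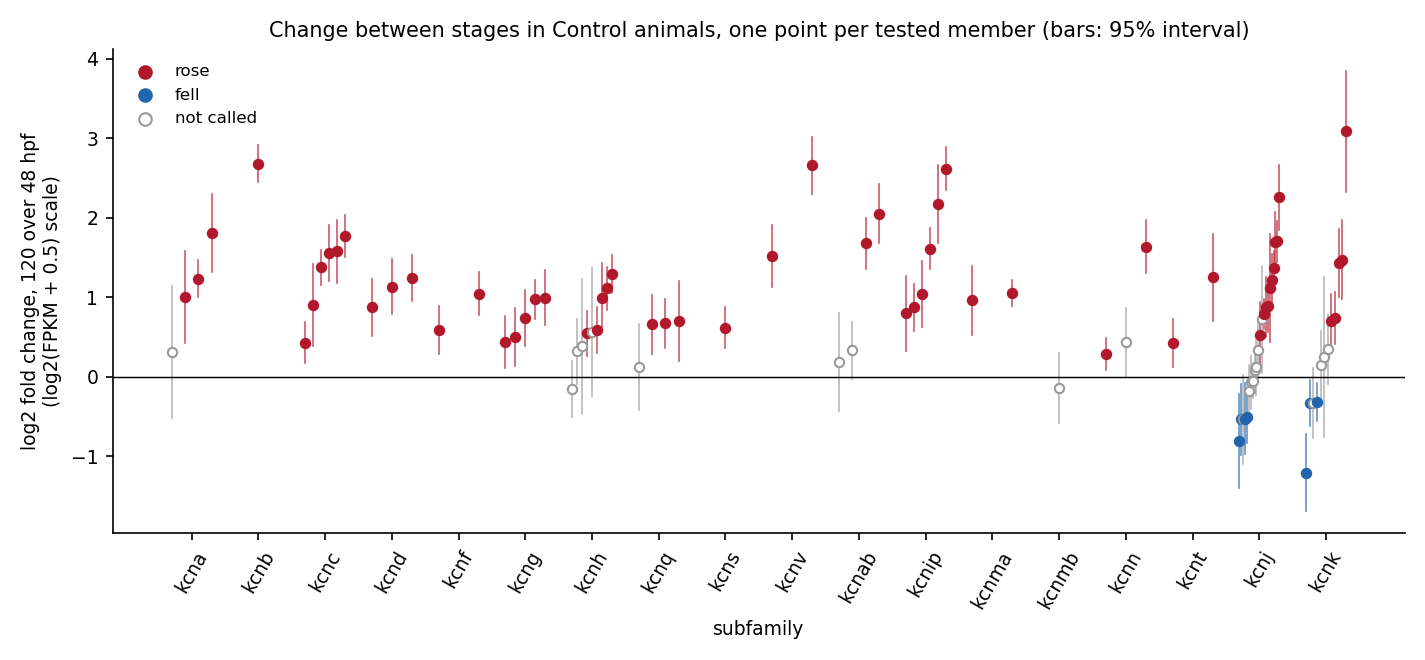
Log2 fold change of 120 over 48 hpf in Control embryos on the log2(FPKM + 0.5) scale (y axis) for the 89 tested subunits, ordered by subfamily (x axis); points are genes, bars the 95% confidence interval, and colour shows whether a gene rose, fell or was not called. The falls lie in kcnj and kcnk alone, and the largest rise is that of kcnk3b at 3.09.

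Inward rectifiers and leak channels were mixed in direction. Together 44.1% of their 34 tested genes rose and 20.6% fell in Control, against 38.3% and 27.9% of all rows. Of 25 kcnj genes 22 were tested, of which 10 rose and 4 fell, and of 21 kcnk genes 12 were tested, of which 5 rose and 3 fell. In the unfiltered fit 13 kcnj genes rose and 2 fell, and 9 kcnk genes rose and 2 fell, and the other fall of that fit was a voltage-gated gene. The background of that fit was 29.4% higher and 19.8% lower. Among the rises, kcnj12b, a strong inward rectifier of muscle and heart in mammals, had 4.56, 6.39, 6.76 and 4.55 FPKM at 120 hpf in Control, against 0.6, 0.56, 1.31 and 0.66 FPKM at 48 hpf (log2 fold change 2.26 ± 0.19 SE, limma adjusted p = 3.14e-08). The G-protein-gated kcnj3b rose by 1.70 ± 0.12 (SE; limma adjusted p = 3.84e-09).

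The largest change of any subunit was in the acid-sensitive leak channel kcnk3b, which had 8.97, 4.82, 3.26 and 6.47 FPKM at 120 hpf in Control, against 0.25, 0.18, 0.37 and 0.07 FPKM at 48 hpf. The log2 fold change was 3.09 ± 0.36 (SE; limma adjusted p = 1.1e-06). The stages were far apart, with a wide spread at 120 hpf. This gene passed the filter through 120 hpf alone, with 8 libraries of that stage and 0 of 48 hpf at 0.5 FPKM. The most abundant leak channel, kcnk5a, did not differ beyond its spread, with 13.8, 9.32, 6.3 and 6.97 FPKM at 120 hpf in Control and 9.85, 9.16, 5.87 and 5.09 FPKM at 48 hpf (0.25, 95% confidence interval -0.76 to 1.26, limma adjusted p = 0.658).

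The largest of the falls was that of kcnk10b, and several of the others were not stable. The stretch- and heat-sensitive leak channel kcnk10b fell to 0.2, 0.06, 0 and 0.12 FPKM at 120 hpf in Control, against 0.96, 0.67, 1.47 and 0.53 FPKM at 48 hpf (log2 fold change -1.21 ± 0.23 SE, limma adjusted p = 1.88e-04). Its stages did not overlap. The falls with a mean of 1 FPKM or more at either stage were kcnk6 (-0.32, limma adjusted p = 0.0212), kcnk5b (-0.33, limma adjusted p = 0.0419), and the tandem copies kcnj1a.4 (-0.81, limma adjusted p = 0.0171), kcnj1a.5 (-0.54, limma adjusted p = 0.0337) and kcnj1a.6 (-0.53, limma adjusted p = 0.0353). The count of falls was 4 without Control 48 hpf replicate 1, 3 without Control 48 hpf replicate 2, and 4 without either Control 120 hpf replicate 3 or replicate 4. Over all rows 26.7 to 27.6% fell in these fits.

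Single libraries ended several of these calls. For kcnk6 the limma adjusted p was 0.0693 without Control 48 hpf replicate 2 and 0.0626 without Control 120 hpf replicate 3. For kcnj1a.4 it was 0.0591 without Control 48 hpf replicate 1 and 0.0688 without Control 120 hpf replicate 3. For kcnj1a.5 it lay between 0.0583 and 0.123 without any of Control 48 hpf replicates 1, 2 or 3, or of Control 120 hpf replicates 1 or 4. For kcnk5b it lay between 0.0533 and 0.123 without any of Control 48 hpf replicates 2, 3 or 4, or of Control 120 hpf replicates 1, 2 or 4. Such values are not given here for kcnj1a.6 or for kcnj1a.2, a further tandem copy that fell, and neither is shown to be stable.

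The same stage comparison in 5G embryos gave 60 rises and 3 falls among the 89 subunits. The background was 36.1% higher and 29.2% lower, 65.3% in either direction. The group means compared come from other libraries than those of the Control comparison. The filter and the estimate of spread came from all 16 libraries in both, so the comparisons are not independent. Quantile normalization gave 38 and 10, against 28.1% and 37.8%. Without the filter 66 of 113 rose and 4 fell, against 27.9% and 20.7% of all rows. Of the rises 57 were called in both treatments, 95% of each list, where over all rows 86.5% of the Control rises and 91.8% of the 5G rises were shared. Of the falls 1 was called in both, kcnk10b, which is 14.3% of the Control list and 33.3% of the 5G list, where over all rows 89.3% of the Control falls and 85.2% of the 5G falls were shared. These falls are few and several rest on single libraries. The largest changes had near values in 5G: 3.1 for kcnk3b, 2.81 for kcnb2, 2.35 for kcnip3a and 2.33 for kcnv2b. The test of the difference between the treatments is that of the last comparison given here.

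Zebrafish keep many channel genes as a and b copies from a genome duplication in the fish lineage, and the members held 28 such pairs, of which 19 had both copies tested. Within a library the log ratio of the copies removes the library's scale apart from the pseudocount. Reads shared by similar copies can be split between them, which the sources used here do not describe. In Control both copies rose in 11 pairs, 1 copy alone was called in 7, and in 1 the copies moved in opposite directions.

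That opposed pair was kcnk10. Its copy kcnk10a rose, with 2.22, 1.51, 1.18 and 1.06 FPKM at 120 hpf in Control, against 0.25, 0.08, 0.26 and 0.32 FPKM at 48 hpf, a log2 fold change of 1.43 ± 0.20 (SE; limma adjusted p = 1.2e-05), while kcnk10b fell by 1.21 on that scale. The copy kcnk10b passed the filter through 48 hpf alone, with 7 libraries of that stage and 0 of 120 hpf at 0.5 FPKM. The copy kcnk10a passed it through 120 hpf, with 8 libraries of that stage and 1 of 48 hpf at 0.5 FPKM. Each copy was thus admitted by the stage at which it was high. The log2 ratio of kcnk10a to kcnk10b was 1.72 ± 0.27 at 120 hpf and -0.92 ± 0.43 at 48 hpf in Control (SD, n = 4 each), with an exact two-sided permutation p of 0.0286. That p is the smallest possible with these libraries, and after adjustment over the pairs it was 0.0603. The pair was picked by its calls in the same Control libraries, so the Control p is no separate support for them. In 5G the ratio was 1.93 ± 0.40 at 120 hpf and -0.39 ± 0.19 at 48 hpf (exact permutation p = 0.0286). This p is again the smallest possible. The 5G libraries also took part in admitting each copy by its high stage, so the 5G p is no separate support either. The copy with the higher level was thus kcnk10a at 120 hpf and kcnk10b at 48 hpf in both treatments.

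A change of the leading copy was also seen in kcnj3 and kcnk1, pairs picked out after their values were seen. In Control kcnj3b had 3.86, 3.75, 3.58 and 4.46 FPKM at 120 hpf, against 0.9, 0.6, 0.94 and 1.01 FPKM at 48 hpf. The copy kcnj3a had 2.11, 2.45, 2.05 and 2.23 FPKM at 120 hpf and 2.37, 2.15, 2.45 and 2.26 FPKM at 48 hpf, and was not called (-0.05, limma adjusted p = 0.673). The stages overlapped in kcnj3a and were separate in kcnj3b. The log2 ratio of kcnj3a to kcnj3b was -0.70 ± 0.14 at 120 hpf and 1.05 ± 0.16 at 48 hpf (SD, n = 4 each; exact permutation p = 0.0286). For kcnk1a to kcnk1b it was -0.69 ± 0.12 at 120 hpf and 0.64 ± 0.51 at 48 hpf in Control (exact permutation p = 0.0286). In kcnk1 the change held for the mean ratio and not for every library. In Control 48 hpf replicate 3 kcnk1a had 0.82 FPKM and kcnk1b 0.87 FPKM.

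With 4 against 4 libraries an exact permutation p cannot fall under 0.0286, and 9 of the 19 pairs in Control reached it. Their adjusted p was 0.0603 over the 19 pairs, so 0 pairs were called in Control, with 9 pairs at an unadjusted p under 0.05. In 5G 12 pairs reached the smallest p and were called at an adjusted p of 0.0452. Whether the treatments differ in this count was not tested. In Control a pseudocount of 0.1 gave 12 called pairs and quantile normalization 11, and in 5G a pseudocount of 1 gave 0. Without any 1 of the 8 libraries of 5G the smallest possible p is 0.0571 and 0 pairs can be called.

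**Figure D3:**
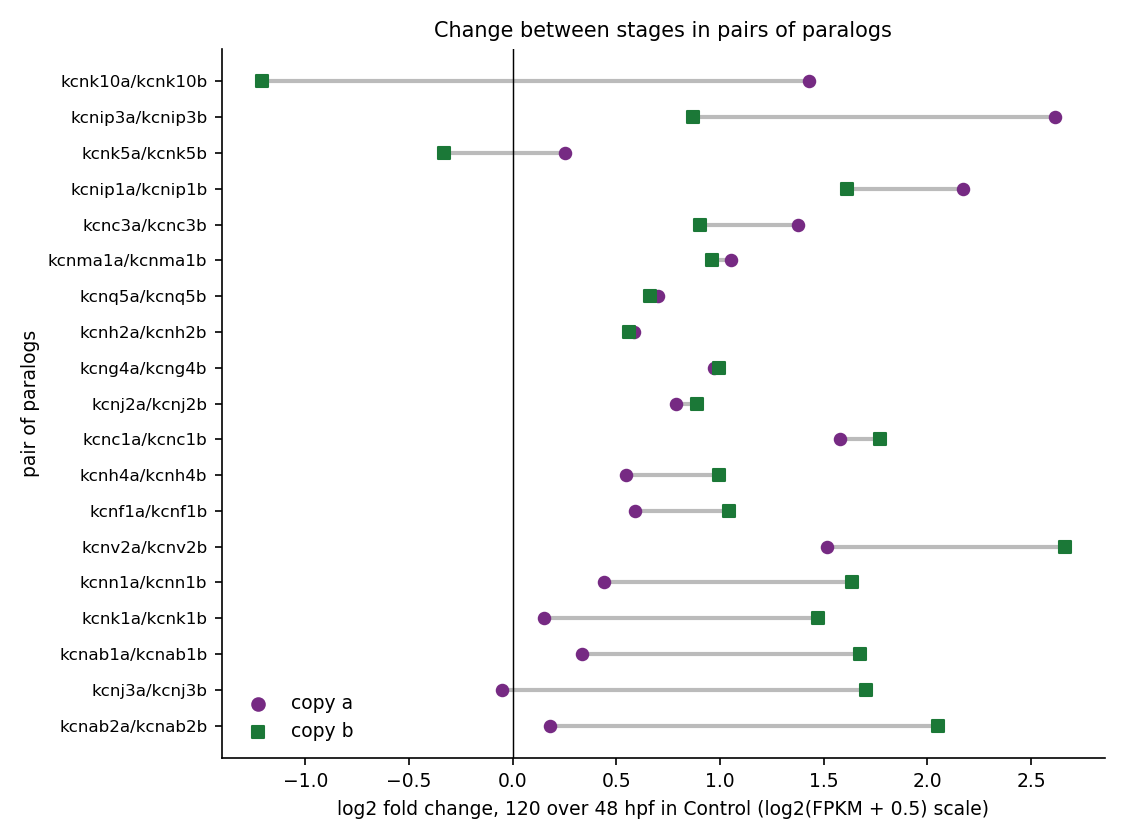
Log2 fold change of 120 over 48 hpf in Control embryos (x axis, log2(FPKM + 0.5) scale) for both copies of the 19 tested pairs (y axis); circles are a copies and squares b copies. The copies of kcnk10 lie on either side of 0, at 1.43 and -1.21, and those of kcnma1, kcnq5, kcnh2, kcng4 and kcnj2 lie close together.

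At 48 hpf, the end of the exposure, 0 of the 89 tested subunits passed between 5G and Control (limma, background 0.00434% of all rows). Unadjusted p-values under 0.05 were found for 5 subunits higher and 0 lower, and the background was 7.3% higher and 2.17% lower. The log2 fold changes of the 89 lay between -0.20 and 0.68, with a median of 0.13, against 0.04 over all rows, and 66 of 89 (74.2%) were above 0, against 60.5% of all rows. After quantile normalization 58 of 89 (65.2%) were above 0, against 50.7% of all rows, with a median of 0.07. For the median subunit the 95% confidence interval reached 0.36 log2 units to either side. Every other setting also gave 0 called subunits.

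The 10 subunits with the smallest p at 48 hpf were kcnc1b, kcnip1a, kcnv2b, kcnc3a, kcnn1b, kcnj1b, kcnj11l, kcna1a, kcnd3 and kcnk10a, and in all 10 the mean was higher in 5G. The smallest p was that of the Shaw-type kcnc1b, with 1.33, 1.41, 1.92 and 1.88 FPKM in 5G and 0.94, 0.82, 1.43 and 1.16 FPKM in Control (log2 fold change 0.43 ± 0.13 SE, unadjusted p = 0.00353, limma adjusted p = 0.288). The largest difference was that of kcnip1a, with 1.48, 2.62, 3.69 and 1.88 FPKM in 5G and 1.45, 0.73, 1.41 and 1.56 FPKM in Control (0.68 ± 0.23 SE, limma adjusted p = 0.345). The groups overlapped in both genes. In 1 of the 89 subunits, the modifier kcng4a, every 5G library lay above every Control library, with 1.0, 1.05, 0.97 and 0.95 FPKM in 5G and 0.75, 0.89, 0.69 and 0.86 FPKM in Control, and the background for that was 3%. In 0 subunits did every 5G library lie below, against 1.27% of all rows.

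Several libraries bore on these small differences. Without 5G 48 hpf replicate 3 the median over the subunits was 0.09, 56 of 89 were above 0 (62.9%, against 60.1% of all rows), and 3 (3.37%) had an unadjusted p under 0.05, all higher, against 6.57% of all rows. The median was 0.10 without 5G 48 hpf replicate 2 and 0.10 without Control 48 hpf replicate 2. Without Control 48 hpf replicate 3 the median was 0.18, and 8 subunits (8.99%) had an unadjusted p under 0.05, against 9.61% of all rows. Without Control 48 hpf replicate 2 that number was 3 (3.37%), against 7.89% of all rows. Without 5G 48 hpf replicate 1 it was 14, or 15.7% of the subunits, but all rows moved as well: 13.7% had an unadjusted p under 0.05, and 389 rows passed the adjusted test, 0 of them subunits, where all libraries gave 1 row. With all libraries kept, 10 of 10 neuron markers were above 0, with a median of 0.33. Their sums were 771.6 to 927.9 FPKM in 5G and 665 to 778.1 FPKM in Control. None of the 10 markers passed, and their part in the values of the subunits was not tested.

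**Figure D4:**
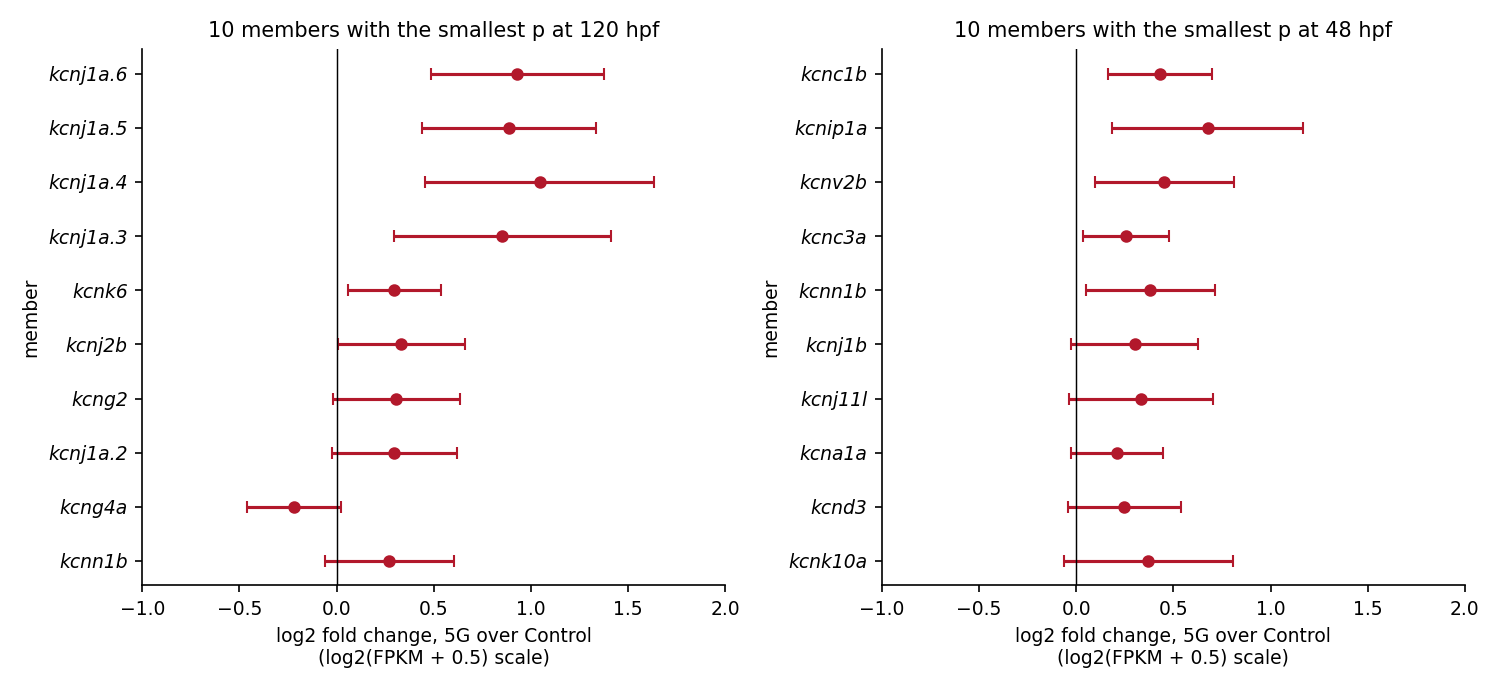
Log2 fold change of 5G over Control (x axes, log2(FPKM + 0.5) scale) with 95% confidence intervals for the 10 subunits with the smallest unadjusted p at 120 hpf (left) and 48 hpf (right). No subunit passed the adjusted test at either stage, and the 4 largest differences at 120 hpf are kcnj1a.3 to kcnj1a.6, between 0.85 and 1.05.

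At 120 hpf, well after the exposure had ended, 0 of the 89 subunits passed (limma, background 0% of all rows). An unadjusted p under 0.05 was found for 6 subunits (6.74%) higher and 0 lower, against a background of 1.78% higher and 2.35% lower. The 6 were kcnk6, kcnj2b and the tandem copies kcnj1a.3 to kcnj1a.6. Those copies may share reads and do not count as independent genes, so the share is no result about the family. The median log2 fold change was 0.07, against 0.00 over all rows, with a range of -0.22 to 1.05, and 64 of 89 (71.9%) were above 0, against 48.9% of all rows. Without Control 120 hpf replicate 3 that median was 0.00, with 45 of 89 above 0, and without Control 120 hpf replicate 1 the number of subunits with an unadjusted p under 0.05 was 10 of 87 (11.5%), where all rows also moved, to 5.55%, against 4.13% with that library. All other settings gave 0 called subunits.

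Copies of kcnj1a stood at the head of the list. The mammalian counterpart, ROMK, secretes potassium in the kidney, and in zebrafish kcnj1 genes are expressed in skin ionocytes. In the RefSeq annotation of assembly GRCz12tu, used here for neighbours only, 6 copies stand in a row on chromosome 18, in the order fli1, kcnj1a.6, kcnj1a.5, kcnj1a.4, kcnj1a.3, kcnj1a.2, kcnj1a.1, kcnj5 and st3gal4. How reads that match more than 1 tandem copy were counted, and whether strand was used, is not stated, so reads may have been split or shared among the copies.

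Of the 6 copies, kcnj1a.6 had 3.71, 3.83, 3.27 and 3.96 FPKM in 5G 120 hpf, against 2.44, 2.22, 1.25 and 1.16 FPKM in Control 120 hpf, a log2 fold change of 0.93 ± 0.21 (SE; unadjusted p = 4.17e-04, limma adjusted p = 0.506). For kcnj1a.5 the values were 3.31, 4.82, 4.13 and 4.52 FPKM in 5G and 2.0, 2.58, 2.36 and 1.32 FPKM in Control (0.89 ± 0.21 SE, limma adjusted p = 0.522). In both copies every 5G library lay above every Control library.

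The same held for the next 2 copies. In kcnj1a.4 the levels were 2.51, 4.38, 3.75 and 2.81 FPKM in 5G and 1.8, 2.47, 0.59 and 1.03 FPKM in Control (1.05 ± 0.28 SE, limma adjusted p = 0.729). In kcnj1a.3 they were 2.18, 3.11, 2.57 and 3.06 FPKM in 5G and 0.86, 2.05, 1.24 and 1.15 FPKM in Control (0.85 ± 0.26 SE, limma adjusted p = 0.909). With kcng2 these were the 5 subunits whose 5G libraries all lay above the Control libraries, 5.62% of the 89, against 0.886% of all rows, while 0 lay entirely below, against 1.22%. The copies lie side by side and may share reads, so they do not count as independent genes.

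Summed over kcnj1a.3 to kcnj1a.6 the level was 11.7, 16.1, 13.7 and 14.3 FPKM in 5G 120 hpf and 7.1, 9.32, 5.44 and 4.66 FPKM in Control 120 hpf. These are the copies in which every 5G library of 120 hpf lay above every Control library. The same split of their sum follows from that choice and is no separate support. At 48 hpf the sum was 11.6, 12.6, 13.4 and 6.1 FPKM in 5G and 13.9, 11.6, 9.96 and 8.03 FPKM in Control. Thus the 5G libraries of 120 hpf overlapped with both groups of 48 hpf, while 3 of the 4 Control libraries of 120 hpf lay below the Control libraries of 48 hpf. The sum of kcnj1a.1 and kcnj1a.2 overlapped between treatments, at 3.81, 3.4, 2.33 and 2.74 FPKM in 5G 120 hpf and 2.77, 3.38, 2.74 and 2.79 FPKM in Control 120 hpf. Most of that sum came from kcnj1a.1. Taken alone, kcnj1a.2 averaged 0.7875 ± 0.199 FPKM in 5G 120 hpf and 0.545 ± 0.154 FPKM in Control 120 hpf (SD, n = 4 each). Its mean was thus higher in 5G, as in kcnj1a.3 to kcnj1a.6, but its libraries overlapped.

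Over the 28 settings, many of which cannot alter the direction because the groups do not overlap, the log2 fold changes were 0.70 to 1.04 for kcnj1a.3, 0.79 to 1.28 for kcnj1a.4, 0.70 to 1.01 for kcnj1a.5 and 0.77 to 1.09 for kcnj1a.6. The lowest limma adjusted p over these settings was 0.153, for kcnj1a.5. All 7 ionocyte markers were also above 0 at 120 hpf, with a median of 0.09 and sums of 128.5 to 151.3 FPKM in 5G and 122.7 to 130.3 FPKM in Control, and 0 of 7 passed. The largest differences among these markers were 0.44 for slc12a10.2 and 0.39 for foxi3a (limma adjusted p = 1 and 0.909). Of the pronephros markers 3 of 6 were above 0. The part of ionocyte number or RNA content in the kcnj1a values was not tested.

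**Figure D5:**
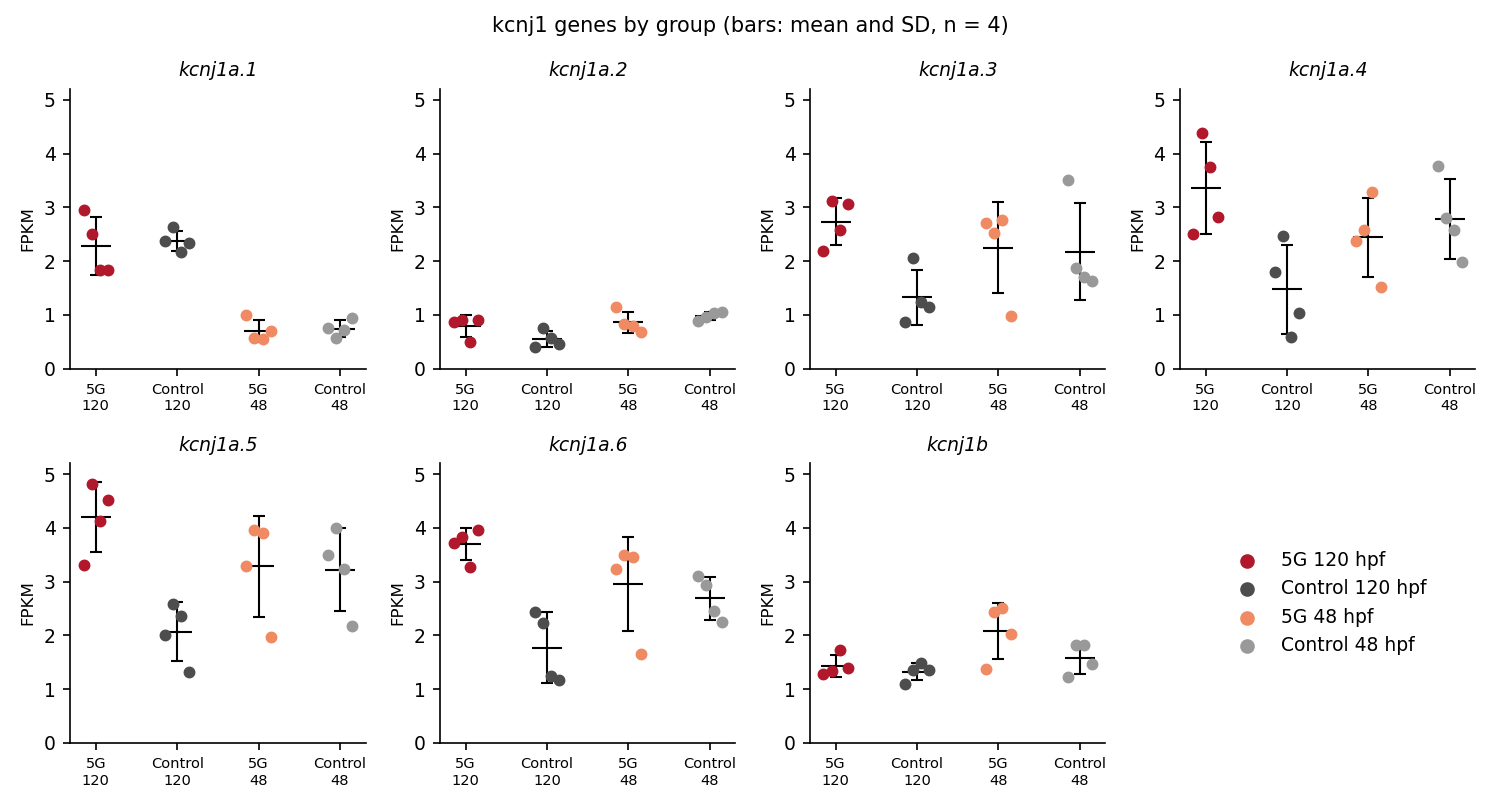
FPKM (y axes) of the kcnj1 genes in each library, by treatment and stage in hpf (x axes); points are libraries and bars the mean and SD of 4. In kcnj1a.3 to kcnj1a.6 the 5G 120 hpf libraries all lie above the Control 120 hpf libraries, whereas kcnj1a.1, kcnj1a.2 and kcnj1b overlap.

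Among the other subunits with small p at 120 hpf, the leak channel kcnk6 had 5.04, 4.86, 3.33 and 4.27 FPKM in 5G and 3.49, 3.54, 3.09 and 3.62 FPKM in Control (0.30 ± 0.11 SE, limma adjusted p = 1). The modifier kcng2 had 1.4, 1.51, 1.2 and 1.23 FPKM in 5G and 1.19, 1.15, 0.85 and 0.77 FPKM in Control (0.31 ± 0.15 SE, limma adjusted p = 1). Overlap was seen in kcnk6 and none in kcng2. In kcng4a the mean was lower in 5G (-0.22 ± 0.11 SE, limma adjusted p = 1). The remaining named genes, kcnj2b, kcnj1a.2 and kcnn1b, were higher in 5G by 0.27 to 0.33 and did not pass.

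The difference between the 5G effects at 120 and at 48 hpf was tested as an interaction, and 0 of the 89 subunits passed (limma, background 0% of all rows). An unadjusted p under 0.05 was found for 5 subunits (5.62%) higher and 3 (3.37%) lower, against 2% and 4.84% of all rows. The 5 higher were kcnk6 and the tandem copies kcnj1a.3 to kcnj1a.6. Those copies do not count as independent genes, so the share is no result about the family. The lowest limma adjusted p was 0.584, for kcnj1a.4, whose 5G effect was 1.04 at 120 hpf and -0.17 at 48 hpf, a difference of 1.21 ± 0.39 (SE). For kcnk6 the effects were 0.30 at 120 hpf and -0.19 at 48 hpf, and for kcnc1b they were -0.03 at 120 hpf and 0.43 at 48 hpf. The effects of kcng4a were -0.22 at 120 hpf and 0.20 at 48 hpf. None of these differences passed.

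Other genes of membrane excitability are given from lists written with earlier results of these data known, beside a background of 38.3% higher and 27.9% lower over all rows. Of 22 tested partners of potassium channels 14 rose and 4 fell in Control, with a median of 0.87. They included dpp6b, which binds Shal-type channels (2.0), and abcc8, the sulfonylurea receptor that pairs with kcnj11 (0.995), examples picked after their values were seen, and the falls were lgi1a, lgi1b, cntnap2b and cntn2. Of 24 tested potassium pumps and cotransporters 18 rose and 1 fell, among them the sodium pump subunit atp1a1a.4, which averaged 214.5 ± 26 FPKM at 120 hpf and 33.1 ± 4.21 FPKM at 48 hpf in Control (SD, n = 4 each). Of 11 tested voltage-gated sodium channels 10 rose and 0 fell, as did 10 and 0 of 11 related cation channels. The limit of the filter holds for these lists too. Genes such as cnga1, cngb1a, cngb3.1, hcn3, scn12aa and abcc8b stayed under 0.5 FPKM in every library of 48 hpf. They passed the filter only with the libraries of 120 hpf, where they were high, so the shares that rose are partly set by the filter. After quantile normalization, with a background of 28.4% higher and 38.1% lower, the rises and falls were 13 and 5 for the partners, 16 and 1 for the pumps and cotransporters, 7 and 0 for the sodium channels, and 10 and 1 for the related cation channels. Between 5G and Control 0 genes of these lists passed at either stage.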

How the data were processed

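RNA of whole zebrafish embryos was measured in 16 libraries, 4 per group. The authors deposited FPKM values for 32513 rows, per the file headers. Build GRCz11 and the tools HISAT2, Bowtie2 and DESeq2 come from the submitters' processing notes, which state no versions and no roles, so it is not stated which of them led to the FPKM table. Per the file headers, deposited summary files hold raw read totals, read counts after filtering, and mapped and rRNA shares in percent. Because FPKM do not give counts of reads per gene, count models were not used. limma 3.58.1 (R 4.3.3, mean-variance trend, 12 residual degrees of freedom) was fitted to log2(FPKM + 0.5) for the 23026 rows that reached 0.5 FPKM in 4 or more libraries, with Benjamini-Hochberg adjustment over all of them. Fold changes on this scale understate changes of genes at low level. Copies were compared by exact two-sided permutation (scipy 1.17.1), adjusted over the 19 pairs of a treatment.

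Named genes were the 10 smallest p-values of each comparison with 5G, up to 2 rises and 2 falls per subfamily with a mean of at least 1 FPKM, the most abundant gene of each subfamily and group, and opposed copies. The members, lists and rules were chosen with earlier results of these data known. Of the members' gene IDs 112 were found in the RefSeq gene table (GRCz12tu, used for names and neighbours). Rows without a symbol were not members, even where their description named a potassium channel (60 rows with that description lay outside the rule, other channel families included). Data simulated from the real Control means, with 2-fold and larger changes, were used to check the fit. That check required recovery of most of the larger changes and set no such requirement for the 2-fold ones. Alternatives were other pseudocounts (0.1 and 1), filters, scalings and fits, and leaving out each library.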

Additional observations from a re-analysis of the deposited data

Results flagged for a closer look

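In 276 groups of 4 values (subunits named in the text and subfamily sums), 20 had a library far from the other 3 by Dixon's test at 95%, where chance alone gives about 13.8. The copies of kcnj1a accounted for 4. In 5G 48 hpf replicate 4, kcnj1a.6 was 1.65 FPKM (others 3.24 to 3.49) and kcnj1a.3 was 0.98 FPKM (others 2.53 to 2.77). In Control 48 hpf replicate 1, kcnj1a.3 was 3.51 FPKM (others 1.62 to 1.87), and in 5G 120 hpf replicate 3, kcnj1a.2 was 0.49 FPKM (others 0.86 to 0.9).

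In 5G at 120 hpf, replicate 1 had kcnn3 at 4.29 FPKM (others 3.92 to 3.98). Replicate 2 had kcnk5b at 2.1 FPKM (others 1.31 to 1.34) and the kcns sum at 3.19 FPKM (others 2.37 to 2.5). Replicate 3 had kcna6a at 4.26 FPKM (others 2.02 to 2.39). Replicate 4 had kcnb2 at 6.8 FPKM (others 7.62 to 7.72), kcnh3 at 1.52 FPKM (others 2.23 to 2.26) and kcne4 at 0.52 FPKM (others 0.26 to 0.27).

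In Control at 120 hpf, replicate 1 had kcnn3 at 4.84 FPKM (others 3.82 to 3.94) and kcnj11 at 4.55 FPKM (others 6.4 to 6.61). Replicate 2 had kcnd1 at 3.73 FPKM (others 4.4 to 4.5) and kcnh6a at 2.47 FPKM (others 2.84 to 2.89). In 5G at 48 hpf, replicate 3 had the kcnh sum at 9.26 FPKM (others 5.44 to 6.08) and kcnj2b at 0.03 FPKM (others listed at 0). In Control at 48 hpf, replicate 3 had kcnj12b at 1.31 FPKM (others 0.56 to 0.66), and replicate 4 had kcnma1a at 7.12 FPKM (others 6.88 to 6.92) and kcnj2b at 0.05 FPKM (others 0.03). These departures were given as values and their causes were not tested.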

How the results depend on the processing

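The counts of 0 called subunits in both comparisons of 5G with Control and in their difference held under every setting run. The stage counts moved with scaling and single libraries, and the cause was not tested. In Control the falls (7) were 15 after quantile normalization and 4 with replicates 1 to 3 only, and 3 to 8 without 1 library. In 5G the rises (60) were 38 after quantile normalization and 52 to 59 without 1 library. The falls in 5G (3) were 10 after quantile normalization and 1 with a filter of 1 FPKM. Over all rows quantile normalization gave 38.1% lower in Control, and 28.1% higher and 37.8% lower in 5G. The filter of 1 FPKM gave 31.9% lower in 5G. The pairs of copies called in Control (0) were 12 with a pseudocount of 0.1 and 11 after quantile normalization. Those in 5G (12) were 0 with a pseudocount of 1 and 0 without 1 library, where fewer samples raise the smallest p to 0.0571. For kcnn3 the stage change in Control turned to -0.036 after quantile normalization, and another 28 values of single genes kept their direction but lost the threshold. Replicate numbers were not taken to pair the libraries, since same-numbered deviations correlated between -0.157 and 0.308 and not every pair was over 0.1. Replicate 4 was over 0.1 in all 4 comparisons (0.174 to 0.308) and correlated best with its own number in each. With a replicate block the stage counts were 62 rises and 6 falls in Control and 59 and 3 in 5G, and the pairs called in 5G were 0, where the smallest p is 0.125. The background with that block was 38.6% higher and 28.1% lower in Control, and 36.45% and 29.35% in 5G. The median subunit's 95% interval of 0.36 log2 units to either side limits the comparisons with 5G, and low genes have coarser values, since FPKM were deposited with 2 decimals and no depth per gene.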
